A study of Mus musculus with 19 samples.

Results

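Of 11916 sites bound by Ring1B in control mouse embryonic stem cells (ESC), 3109 also carried Cbx7. They were selected on measured values, the positions of ChIP-seq peaks, as the control Ring1B peaks that shared at least 1 bp with a Cbx7 peak from cells with the same control hairpin. The other 8807 Ring1B sites shared no base with a Cbx7 peak and are called Ring1B-only sites. The presence of Ring1B and of Cbx7 in control ESC at the chosen sites is therefore given and is no finding, whereas the Ring1B lists of other cells, the Oct4 and DamID lists and the RNA were not used to choose them.

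The study asked how Nup153, a protein of the basket of the nuclear pore, bears on silent genes and on pluripotency in stem cells, and it holds 19 samples of RNA-seq, ChIP-seq and DamID-seq. DamID marks DNA that a protein fused to a bacterial adenine methylase has come close to. The ESC were of the E14 line, kept on irradiated mouse embryonic fibroblasts with LIF. The control ESC (shCtrl) carried a scrambled hairpin, and the knockdown ESC carried 1 of 2 lentiviral hairpins against Nup153, shNup153 #2 or #4. Both kinds were selected with puromycin and were used as pools of transduced cells. Neural progenitors (NeuP) were derived by way of embryoid bodies and Noggin and kept in medium with EGF and FGF2. They carried no hairpin, and no line is named for them, so line and hairpin cannot be told apart from cell type in any comparison with NeuP. The DamID cells were E14 ESC without a hairpin, with Dam fused to Nup153, to Oct4 or to GFP as the negative control, in 2 replicates each.

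Polycomb repressive complex 1 (PRC1) places ubiquitin on histone H2A, and Ring1B is its catalytic subunit. In the canonical form of the complex a CBX protein such as Cbx7, the main one of ESC, binds the trimethylated lysine 27 of histone H3 that PRC2 places. In other forms RYBP or its relative takes the place of the CBX protein. In ESC canonical PRC1 is known for covering CpG-rich promoters of silent developmental regulators, which are later switched on in the lineages that need them.

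Promoters of 5 genes at the sites that are named in the results below are shown as examples. They are Tfap2a and Pax9 at the widest and second widest site, Olig2 with the largest rise in NeuP, Pou5f1 with the highest RNA in control ESC, and Bhlhe41, the lone gene that was at least 2-fold lower in both hairpins. Each sequence runs from 250 bases before to 50 bases after the RefSeq start (build GRCm38.p6, the most upstream entry of the gene), and each CG is in capitals. The peaks are on mm9, another build, so genes were matched by name and no position was carried over. A window need not lie inside the site of its gene, which may stand up to 2 kb from the start.
Tfap2a promoter, chr13:40734871-40735170, minus strand: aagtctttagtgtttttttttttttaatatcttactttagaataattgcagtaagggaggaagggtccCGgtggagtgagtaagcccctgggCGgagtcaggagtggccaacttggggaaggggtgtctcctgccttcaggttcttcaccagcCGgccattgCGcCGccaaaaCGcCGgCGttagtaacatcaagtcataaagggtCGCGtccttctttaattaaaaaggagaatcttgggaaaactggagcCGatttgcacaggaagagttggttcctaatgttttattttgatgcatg
Pax9 promoter, chr12:56695221-56695520, plus strand: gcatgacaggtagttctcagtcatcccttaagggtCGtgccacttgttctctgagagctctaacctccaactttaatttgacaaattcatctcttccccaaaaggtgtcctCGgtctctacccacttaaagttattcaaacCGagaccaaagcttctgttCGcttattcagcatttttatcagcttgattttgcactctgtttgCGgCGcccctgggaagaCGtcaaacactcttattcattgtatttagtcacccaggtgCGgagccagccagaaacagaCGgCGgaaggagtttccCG
Olig2 promoter, chr16:91225300-91225599, plus strand: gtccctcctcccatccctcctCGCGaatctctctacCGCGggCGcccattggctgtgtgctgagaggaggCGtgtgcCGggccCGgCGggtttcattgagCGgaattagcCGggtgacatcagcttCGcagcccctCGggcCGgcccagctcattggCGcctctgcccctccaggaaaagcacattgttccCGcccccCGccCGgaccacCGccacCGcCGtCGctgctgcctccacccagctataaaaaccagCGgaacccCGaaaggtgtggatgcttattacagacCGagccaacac
Pou5f1 promoter, chr17:35505782-35506081, plus strand: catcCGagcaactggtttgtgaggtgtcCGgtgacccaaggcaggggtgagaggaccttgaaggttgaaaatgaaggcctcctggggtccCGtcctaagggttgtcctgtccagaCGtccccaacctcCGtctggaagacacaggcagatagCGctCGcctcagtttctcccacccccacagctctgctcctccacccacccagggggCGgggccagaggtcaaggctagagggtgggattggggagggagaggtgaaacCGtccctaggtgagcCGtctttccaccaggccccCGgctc
Bhlhe41 promoter, chr6:145865371-145865670, minus strand: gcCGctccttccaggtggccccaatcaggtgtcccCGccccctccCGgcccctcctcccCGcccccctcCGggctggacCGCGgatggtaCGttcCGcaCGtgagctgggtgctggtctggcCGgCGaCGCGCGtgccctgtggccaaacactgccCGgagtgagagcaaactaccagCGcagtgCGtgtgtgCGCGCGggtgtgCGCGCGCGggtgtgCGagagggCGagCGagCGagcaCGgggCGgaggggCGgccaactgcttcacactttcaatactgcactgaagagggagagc
The Tfap2a and Pax9 windows held 11 CG each, that of Pou5f1 11, that of Olig2 25 and that of Bhlhe41 32, and the median of all 27025 RefSeq promoters was 7. The letters GGGCGG, on either strand, stood in the windows of Tfap2a, Olig2, Bhlhe41 and Pou5f1 but not of Pax9, and in 35.9% of all promoters of this length. A promoter was found for 546 of the 786 genes at the sites. That is below the 80% needed to compare their base composition as a set, so that comparison is void.

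The start sites of 10 of the 1075 microRNA genes in the table also lay at the sites. A microRNA silences messages that pair with its seed, bases 2 to 8, shown in capitals for 4 of them in the RefSeq mature forms. They were picked after their sites were seen, to show the microRNA of the widest such site, miR-196b, and 3 others.
miR-196b-5p: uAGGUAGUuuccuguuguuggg
miR-615-3p: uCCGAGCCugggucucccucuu
miR-1247-5p: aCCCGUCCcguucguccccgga
miR-9-5p: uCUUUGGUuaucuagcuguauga
These 4 seeds differ from each other. Mir196b lies within the HOXA cluster (mm9 chr6:52180080-52180164, minus strand) under a Ring1B site of 5811 bp that was in the lists of both hairpins and of NeuP. Mir615 (chr15:102845341-102845432, plus strand) lay at a site of 1579 bp and Mir1247 (chr12:111516258-111516339, minus strand) at one of 855 bp, both in the 2 hairpin lists and not in NeuP. Mir9-3 (chr7:86650150-86650239, plus strand), a source of the neural microRNA miR-9, lay at a site of 501 bp in the hairpin #2 list only. The RNA table does not measure mature microRNAs.

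The sites with Cbx7 were wider than the others. Their median width was 635 bp (quartiles 501 and 878, range 501 to 7434), against 501 bp for Ring1B-only sites, and 39.2% of them against 65.0% had the width of 501 bp that most peaks share. They covered 2.54 Mb in all. Cbx7 covered a median of 94.3% of a site, 1307 of the 3109 sites (42.0%) lay wholly inside a Cbx7 peak, and 2850 had at least 50% of their length in one. At the edge of the rule 9 sites shared under 50 bp with Cbx7, the smallest overlap being 2 bp, and 93 Ring1B-only sites lay within 500 bp of a Cbx7 peak, the nearest at 2 bp.

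Transcription start sites (TSS) were more frequent at them. Of the 3109 sites 831 (26.7%) lay within 2 kb of a TSS of the deposited transcript table, against 1082 of the 8807 Ring1B-only sites (12.3%) and 16.1% of all Ring1B sites. The difference was 14.4 percentage points (Newcombe 95% interval 12.8 to 16.2). Intervals on shares of sites cover counting error only. There is 1 peak list per condition, so no difference between lists could be tested over samples. The sites at a TSS lay wholly inside Cbx7 peaks in 77.1% of cases (641 sites), and the 2278 sites away from one in 29.2% (666 sites). The distal sites lay a median of 23.2 kb from the nearest TSS (quartiles 8.23 and 63.3 kb), and 975 of them (42.8%) lay within the span of a transcript. Over 20 chromosomes the share of Ring1B sites with Cbx7 ran from 21.1% to 32.5%, and 3 sites lay on the mitochondrial genome or on unplaced sequence.

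Several sites often stood in 1 Cbx7 domain, so sites are not independent of each other. Of 12454 Cbx7 peaks 2767 (22.2%) held a site, 219 held at least 2, together 568 sites, and 29 held at least 4. The broadest of those holding the most sites covered 36505 bp of the HOXA cluster (mm9 chr6:52154624-52191128) with Hoxa3, Hoxa5, Hoxa6, Hoxa7, Hoxa9 and Mir196b, and held 9 sites. The HOX genes code for the factors that set position along the body axis. Domains with 6 sites each lay at Pax2 (chr19:44814703-44838105), a regulator of kidney and midbrain, and at Dlx1 and Dlx2 (chr2:71364847-71385495), regulators of forebrain interneurons. Other domains with 6 sites lay at the noncoding gene Six3os1 beside the forebrain gene Six3, and at Gata3, a regulator of T cells and trophoblast. Domains with 5 sites lay at the eye and forebrain gene Pax6, at the endoderm factor gene Foxa1 and in a stretch of chromosome 6 (chr6:51118065-51137700) with no TSS of the table within 2 kb of its sites.

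The 12 widest sites lay mostly at or near genes of developmental transcription factors. The widest, of 7434 bp, lay at Tfap2a (chr13:40822897-40830330), a factor of neural crest and epidermis. The second, of 7304 bp, lay at Pax9 (chr12:57792217-57799520), a factor of pharyngeal pouches and teeth, and the third, of 5811 bp, at Hoxa9 and Mir196b (chr6:52178326-52184136). Further sites at a TSS were those of Tchh, which codes for a hair follicle structural protein (chr3:93247406-93252061), of the hindlimb factor gene Pitx1 (chr13:55927660-55932101), of the motor neuron factor gene Isl2 (chr9:55388781-55393090) and of Lef1, a nuclear effector of WNT signals (chr3:130812152-130816222). The other 5 had no TSS within 2 kb. Of these, 3 lay within the span of a transcript, 5.44 kb from the start of Foxa1, 4.01 kb from that of Sim1, a hypothalamic factor gene, and 2.66 kb from that of Tlx3, a factor gene of sensory neurons. The last 2 lay in the chromosome 6 stretch, 95.6 and 89.3 kb from the nearest listed start, that of Mir148a. All 12 were covered wholly by Cbx7, as they were by Ring1B of hairpin #2.

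The sites were mostly present again when Ring1B was mapped in Nup153 knockdown cells. In the hairpin #2 list 2524 of the 3109 sites (81.2%, Wilson 95% interval 79.8 to 82.5) shared at least 1 bp with a Ring1B peak, against 32.5% of Ring1B-only sites and 45.2% of all Ring1B sites. In the hairpin #4 list it was 2231 sites (71.8%), against 36.3% and 45.5% of all Ring1B sites. The differences between sites with and without Cbx7 were 48.7 points (46.9 to 50.3) and 35.5 points (33.6 to 37.3). Both hairpin lists held 1953 of the sites (62.8%), at least 1 held 2802 (90.1%) and neither held 307 (9.87%), whereas 53.6% of Ring1B-only sites were in neither. The libraries differed in depth and in signal, with 4.99 M tags for Ring1B in the control, 30.8 M in hairpin #2 and 9.95 M in hairpin #4, and with 3.67%, 3.54% and 2.25% of tags in peaks per the file headers. The part of depth in these shares was not tested.

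Sites at a TSS and distal sites did not go together in the 2 hairpins. In hairpin #2 92.8% of TSS sites and 77.0% of distal sites were present, a difference of 15.8 points (13.2 to 18.2). In hairpin #4 the order was the other way, 64.0% and 74.6%, a difference of -10.6 points (-14.3 to -6.89). Ring1B-only sites went the same way, with 39.6% at a TSS and 31.5% of distal ones in hairpin #2. In hairpin #4 they gave 29.2% and 37.3%. The order of TSS and distal sites thus differed between the hairpins both with and without Cbx7. Of the sites with Cbx7, both hairpins kept 511 of the 831 TSS sites (61.5%) and 1442 of the 2278 distal sites (63.3%).

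Fewer sites were bound by Ring1B in NeuP. The NeuP list, called from 33.2 M tags with the ESC IgG library as background, held 397 of the 3109 sites (12.8%), against 5.54% of Ring1B-only sites and 7.43% of all Ring1B sites. The difference was 7.23 points (6.0 to 8.53). It held 23.7% of the TSS sites and 8.78% of the distal ones, a difference of 14.9 points (11.9 to 18.1), while among Ring1B-only sites 13.3% at a TSS and 4.45% of distal ones were in NeuP. The NeuP list itself had 14556 peaks, of which 387 (2.66%) met one of the sites. Ring1B was listed in all 3 other Ring1B lists at 297 of the 3109 sites (9.55%). Of the 5 widest TSS sites absent from the NeuP list, the widest was that of Tfap2a, followed by those of Isl2, the kidney and limb gene Osr1 (3408 bp), Hoxa7 (3237 bp) and Nr2f2, an orphan nuclear receptor gene (3006 bp). By contrast 5038 of the 5811 bp at Hoxa9 were bound in NeuP, and 501 of the 7304 bp at Pax9.

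**Figure D1:**
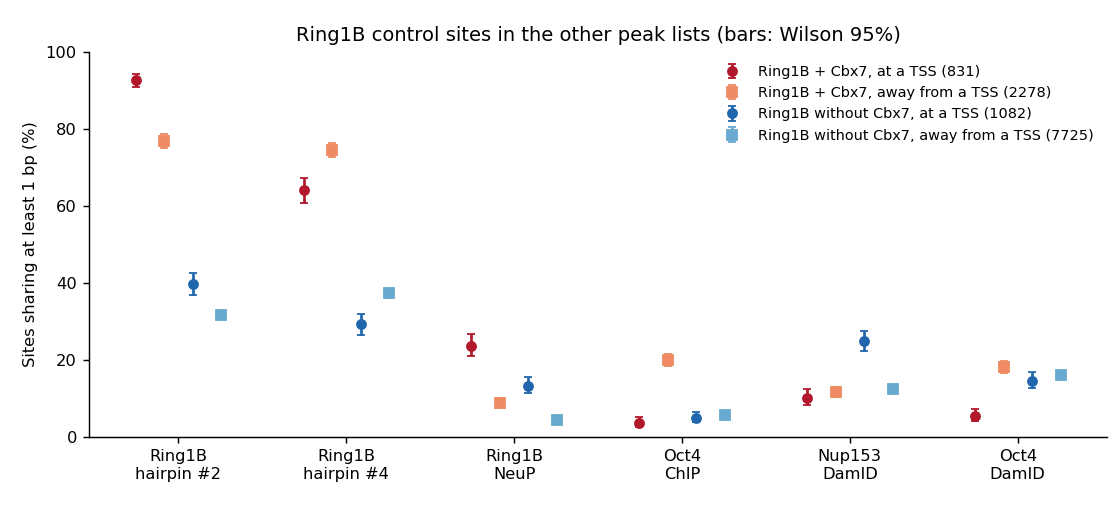
Share of control Ring1B sites (vertical axis, percent) that share at least 1 bp with each of 6 other peak lists (horizontal axis), for sites with and without Cbx7, at a TSS and away from one. Points are shares and bars Wilson 95% intervals, which cover counting error only. Among TSS sites and among distal sites, those with Cbx7 stand above those without it in the 3 other Ring1B lists. Distal sites with Cbx7 stand out in Oct4 ChIP at 19.9%.

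Oct4, the pluripotency factor encoded by Pou5f1, was found at distal sites with Cbx7. Its control ESC list held 484 of the 3109 sites (15.6%), against 5.60% of Ring1B-only sites and 8.2% of all Ring1B sites, a difference of 9.97 points (8.64 to 11.4). The distal sites carried 454 of these 484. Oct4 was present at 19.9% of distal sites and at 3.61% of TSS sites, a difference of -16.3 points for TSS against distal sites (-18.3 to -14.1). At a TSS the share did not differ beyond counting error from the 4.90% of Ring1B-only sites (difference -1.29 points, -3.09 to 0.590) over all widths. Among TSS sites of at least 676 bp it was lower with Cbx7, at 5.42% (3.54 to 8.22) against 12.2% (8.29 to 17.7). Away from a TSS it did, with 5.70% of Ring1B-only sites carrying Oct4 (difference 14.2 points, 12.6 to 16.0). Of the 1462 Oct4 peaks, which all had the fixed width of 177 bp, 495 met a site with Cbx7 (33.9%) and 497 a Ring1B-only site. The Oct4 library had 24.6 M tags with 0.17% of them in peaks.

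The sites with Oct4 differed from the rest of the sites in the other lists too. Ring1B was present at 461 of them in hairpin #2 (95.2%) and at 455 in hairpin #4, against 78.6% and 67.7% of the 2625 sites without Oct4. In NeuP it was the reverse, 6.20% against 14.0%, and among distal sites alone 5.95% (4.12 to 8.51) against 9.48% (8.22 to 10.9), intervals that overlap slightly. Sites with Oct4 were wider, with a median of 770.5 against 631 bp. Distal sites with Oct4 lay a median of 28.5 kb from a TSS, and 37.4% of them lay in the span of a transcript.

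The widest TSS sites that carried Oct4 were those of Tfap2a and Upp1 (chr11:9015307-9017827, 2521 bp), which codes for the enzyme uridine phosphorylase. Next came those of Fbxo15, an F-box gene known as an Oct4 target (1461 bp), of Arhgef18, which codes for a guanine nucleotide exchange factor (chr8:3394740-3395977, 1238 bp), and of Pou5f1 (chr17:35640784-35641976, 1193 bp). At the Pou5f1 site Cbx7 covered 501 of 1193 bp, and the whole site was covered by Ring1B in both hairpin lists and by none in NeuP.

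Contacts of Nup153 were not more frequent at these sites. The Nup153 DamID list met 349 of the 3109 sites (11.2%), against 13.9% of Ring1B-only sites and 13.2% of all Ring1B sites, a difference of -2.63 points (-3.92 to -1.27). It was larger at TSS sites, with 10.1% against 24.8% of Ring1B-only TSS sites (-14.7 points, -17.9 to -11.3). Among distal sites it was 11.6% against 12.3% (-0.691 points, -2.15 to 0.865), which does not exceed counting error when all widths are pooled. Within bands of width the distal sites with Cbx7 were lower too, at 5.18% (3.89 to 6.86) against 7.84% (7.13 to 8.62) of up to 501 bp, 8.37% (6.25 to 11.1) against 13.8% (12 to 15.8) from 626 to 675 bp, and 19.6% (17.2 to 22.3) against 25.9% (23.7 to 28.2) above that. From the side of the DamID list, 329 of its 3516 regions (9.36%) met a site with Cbx7 and 30.6% a Ring1B-only site.

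Oct4 DamID, the study's positive control, met 456 sites (14.7%), against 15.8% of Ring1B-only sites and 15.5% of all Ring1B sites. The difference of -1.13 points (-2.56 to 0.361) did not exceed counting error over all sites. It was again negative at a TSS (5.42% against 14.6%, -9.19 points, -11.8 to -6.54) and slightly positive away from one (18.0% against 16.0%, 2.08 points, 0.343 to 3.90) over all widths. Within bands of width the distal order turned, with 9.21% against 9.59%, 13.1% against 19.5% and 29.2% against 34% from narrow to wide, and in the narrow and the wide band the Wilson intervals overlapped. DamID regions had a median width of 2501 bp in both lists, and the sources used here do not give how replicates and GFP control were combined.

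The 2 DamID lists overlapped at the sites. Of the 349 sites with Nup153 DamID 230 (65.9%) also met Oct4 DamID, against 8.19% of the sites without it, and 28.7% against 13.9% carried Oct4 by ChIP. The sites with Nup153 DamID had a median width of 839 bp, against 632 bp, and Ring1B was present at 86.8% of them in hairpin #2 (80.5% of the others), at 82.2% in hairpin #4 (70.4%) and at 13.2% in NeuP (12.7%). At a TSS the widest sites with Nup153 DamID lay at Tfap2a, where 2501 of 7434 bp were covered, and at Osr2, a limb and palate gene, with sites of 3030 and 2146 bp. Another lay at Upp1, covered over 793 of its 2521 bp.

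Width moved with most of these shares, so they were also read within bands of width. Ring1B of hairpin #2 was present at 70.4% of sites with Cbx7 of up to 501 bp, at 81.0% of those of 626 to 675 bp and at 91.6% of wider ones. The Ring1B-only sites of the same bands gave 21.8%, 44.1% and 59.2%. For hairpin #4 the sites with Cbx7 gave 49.9%, 77.9% and 89.7%, and the others 22.9%, 55.4% and 65.8%. Sites with Cbx7 were thus ahead of those without it in every band of both hairpin lists. The widest band was not matched in full, since it ran to 7434 bp with Cbx7 and to 3123 bp without it. In NeuP the bands of all sites gave 8.87%, 8.46% and 18.6% with Cbx7 and 4.86%, 5.70% and 7.71% without it. TSS sites alone gave 13.47%, 18.58% and 34.96% with Cbx7 and 12.97%, 12.33% and 15.43% without it. Their intervals overlapped in the narrow band (10.28 to 17.45 against 10.75 to 15.57) and in the middle band. Distal sites gave 7.02%, 6.18% and 11.91% against 3.64%, 4.92% and 6.75%, with intervals overlapping in the middle band. For Oct4 ChIP the bands of all sites gave 6.65%, 20.0% and 21.9% with Cbx7 and 2.57%, 9.44% and 12.7% without it. TSS sites alone had the other order, 1.72%, 3.54% and 5.42% against 2.01%, 10.3% and 12.2%, with intervals overlapping in the narrow and middle bands. For Nup153 DamID all sites with Cbx7 were lower than the others in every band, 5.75%, 8.46% and 17.8% against 9.51%, 15.0% and 27.6%. Oct4 DamID gave 7.39%, 11.4% and 23.2% against 9.84%, 18.5% and 33.6%.

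**Figure D2:**
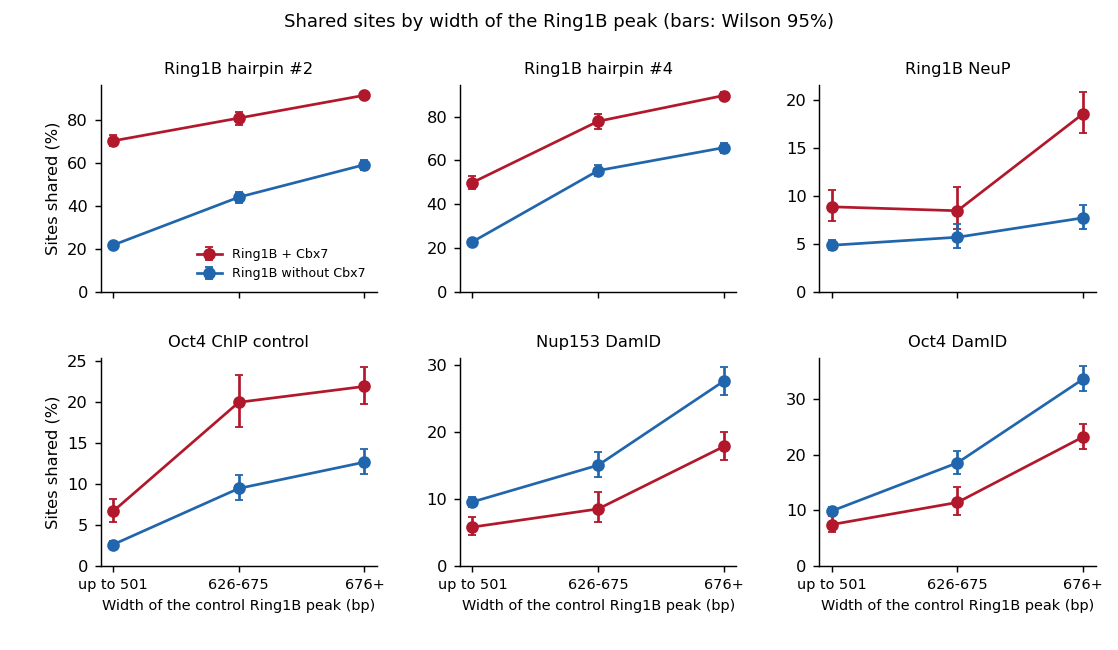
Share of control Ring1B sites (vertical axes, percent) in each of 6 other lists by width of the Ring1B peak (horizontal axis, bp), for sites with and without Cbx7. Bars are Wilson 95% intervals. Within each band the sites with Cbx7 lie above the others in the Ring1B and Oct4 ChIP lists and below them in the DamID lists.

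The genes at the sites were 786, of which 690 code for proteins and 121 have at least 2 sites within 2 kb of their start. They are 3.27% of the 24016 transcripts of the table. RNA was given as FPKM, fragment numbers scaled to transcript length and to library depth, a level that may be compared between genes, from 1 control, 2 knockdown (hairpins #2 and #4) and 2 NeuP libraries of 24.3 to 32.2 M fragments. In control ESC the median of the 786 genes was 0.264 FPKM, and 67.7% of them were under 1 FPKM, with 111 listed at 0. Ring1B-only sites lay at 1159 other genes, whose median was 9.48 FPKM with 23.2% under 1 FPKM, and genes with neither had a median of 0.723 FPKM with 52.2% under it. The median of the genes at sites with Cbx7 was 0.41 FPKM in hairpin #2, 0.371 in hairpin #4, and 0.36 and 0.286 in the NeuP replicates. It stayed below 1 FPKM in all 5 libraries. In the same order it was 10.6, 10.6, 4.01 and 4.44 FPKM for genes at Ring1B-only sites.

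The level went with the other lists at the site. The 34 genes whose site carried Oct4 by ChIP had a control median of 10.1 FPKM, and the 752 others 0.24 FPKM. The 89 genes whose site met Nup153 DamID had 1.21 FPKM, and the 697 others 0.201 FPKM. The 195 genes whose site was bound by Ring1B in NeuP as well had 0.115 FPKM in control ESC, and the 591 others 0.378 FPKM. These medians are descriptions over genes of 1 control library, and genes are not replicates.

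Developmental transcription factors made up much of the set. The 9 lists of transcription factor families held 383 genes of the table, 1.59% of it. Of these, 182 had a site with Cbx7 at the start, 23.2% of the 786 genes, and 16 had only Ring1B-only sites, 1.38% of the 1159 such genes. In control ESC 160 of the 182 (87.9%) were under 1 FPKM. Ring1B was kept in NeuP at 81 of the 182 and at 114 of the other 604 genes.

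By family, a site lay at 25 of 39 HOX genes, 79 of 129 homeobox genes outside HOX, 8 of 9 PAX genes and 5 of 6 GATA genes. It lay at 7 of 17 T-box genes, 8 of 19 SOX genes, 15 of 44 forkhead genes, 15 of 53 bHLH genes of neural and mesodermal fate and 20 of 67 developmental zinc finger genes. Among signalling genes it lay at 11 of 33 WNT ligands and antagonists, 5 of 22 FGF ligands, 6 of 31 genes of the BMP, GDF and Nodal group, 3 of 12 Notch genes, 1 of 10 Hedgehog genes and 0 of 10 Frizzled receptors. Among neural effectors it lay at 8 of 69 axon guidance and 7 of 93 potassium channel genes. Of marker lists, 11 of 24 neural progenitor, 9 of 18 endoderm, 6 of 31 pluripotency, 3 of 14 neuron, 1 of 11 glia and 0 of 18 feeder fibroblast genes had a site. None of 83 ribosomal protein genes and none of 7 genes of cyclin-dependent kinase inhibitors had one.

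**Figure D3:**
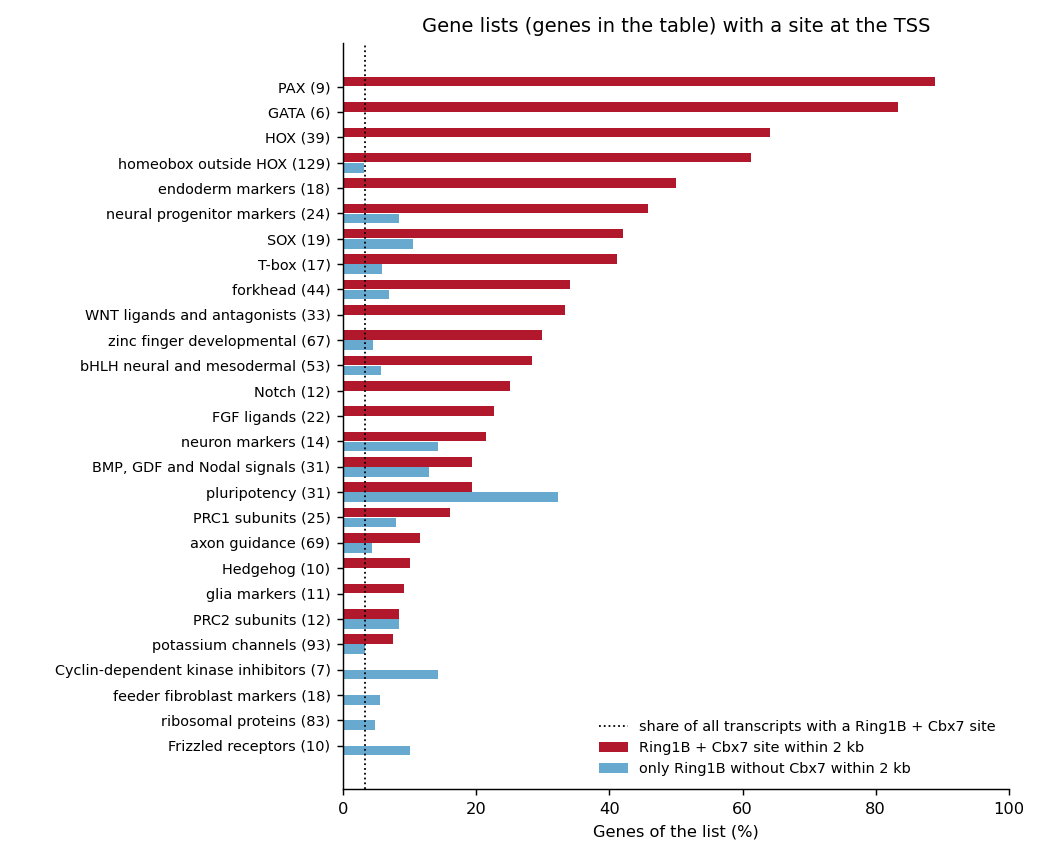
Share of the genes of each list (horizontal axis, percent) with a Ring1B site that carries Cbx7 within 2 kb of the start, and with Ring1B-only sites instead. The number of genes in the table stands beside each list, and the dotted line is the 3.27% of all transcripts. PAX, GATA, HOX and homeobox genes reach the highest shares, and ribosomal protein genes are at 0.

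NeuP were compared with control ESC to see which genes at the sites differ after the change to neural progenitors. Limma tested 13750 genes that reached 1 FPKM in at least 1 library, and 445 of the 786 genes at the sites were among them. Of these, 140 passed only through a NeuP library, 106 of them called higher, so the count of higher genes depends on the filter and is no support for a rise of the set. Limma called 184 of the 445 higher (41.3%) and 104 lower (23.4%) at a Benjamini-Hochberg adjusted p under 0.05, while 18.3% and 24.9% of all tested genes were higher and lower. The median change was 0.84 on the log2(FPKM + 1) scale, against -0.26 over all genes, -0.79 over the 953 tested genes at Ring1B-only sites (110 higher, 369 lower) and -0.24 over genes with neither. These medians depend on the filter too, since only 31 of the 953 and 1314 of all 13750 genes passed through NeuP alone. Without a filter the medians were 2.3e-18 for the 786 genes and 0 over all genes. Limma then called 137 of the 786 higher and 139 lower, beside 1887 and 3496 over all genes. Of the 184, 9 are genes of the gamma protocadherin cluster, which code for neuronal adhesion proteins and end in shared 3′ exons. Their values were nearly equal (7.32 to 7.69 FPKM in the control and NeuP means of 135 to 144 FPKM), their reads may be shared and single members are uncertain. Counted once, 176 of 437 genes were called higher and 104 lower, with a median of 0.79. After quantile normalization the split was 200 higher and 86 lower, beside 2900 and 2865 over all genes, with a median over all genes of -0.06. When only the 3 libraries of the compared groups were fitted it was 41 and 77, beside 240 and 1618 over all genes, and without either hairpin 51 and 74, beside 319 and 1508 (hairpin #2) or 318 and 1504 (hairpin #4). Without NeuP replicate 1 it was 248 and 132, beside 4692 and 5927 over all genes, and without replicate 2 257 and 152, beside 4616 and 6629.

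Direction went with the level in ESC. Of the 532 genes at the sites with under 1 FPKM in the control, limma called 128 higher and 9 lower in NeuP. The 128 are 24.1% of them, and among all genes of the table under 1 FPKM the share called higher was 8.55%. Of the 128, 106 passed the filter only through NeuP, as did 803 of the 1054 such genes of the whole table. Among tested genes that were under 1 FPKM in the control, the shares called higher were 67% and 51%. Of the 83 with at least 10 FPKM in the control, 8 were called higher and 34 lower. A gene near 0 can hardly be called lower, so these counts describe the starting levels as well. The 96 tested genes that kept Ring1B at the start in NeuP had 52 higher and 16 lower calls and a median of 1.50, and the 349 that did not had 132 and 88 and a median of 0.65. Of the 96 genes 43 were tested only through NeuP, 35 of them called higher. Of the 349 it was 97, with 71 called higher, so these counts and medians rest in part on the filter.

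The libraries matched their labels by marker genes. The 6 ESC markers summed to 1071 to 1235 FPKM in the 3 ESC libraries and to 118 and 91.3 in NeuP, and the 6 neural progenitor markers to 110 to 129 and to 3731 and 4106. These sums rest on few genes. The highest ESC marker had a NeuP mean of 97.1 FPKM, while 3 of the 6 were under 1 FPKM in both NeuP libraries. The NeuP means of the progenitor markers ran from 1.99 to 2799 FPKM. The 2 NeuP libraries differed from each other in the 4 glia markers, at 254 and 19.1 FPKM, against 4.88 to 6.11 in ESC, in the 4 neuron markers at 245 and 132, against 13.2 to 16.3, and in the 5 feeder fibroblast markers at 35.2 and 76.3, against 5.79 to 9.88. The 4 endoderm markers summed to 12.4 FPKM in control ESC, to 18.2 and 22.8 in the hairpins and 0.025 in each NeuP library, where Sox17 was at 0. The part of other cell types in the changes below was not tested, and in bulk RNA fewer cells of a type and less RNA per cell cannot be told apart.

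Among factors of neural fate, Olig2, a bHLH factor of motor neuron and oligodendrocyte progenitors (NM_016967, mm9 chr16:91225795-91228922, plus strand), had 0.016 FPKM in the control, 0 and 0.21 FPKM in hairpins #2 and #4, and 201 and 265 FPKM in NeuP. All ESC libraries lay near 0 and both NeuP libraries far above them. The rise was 7.84 ± 0.27 (SE, log2 scale, limma adjusted p = 0.00238). Its site of 2301 bp was bound by Ring1B in both hairpins and in NeuP. Its neighbour Olig1 stood at 0.036, 0.059 and 0.199 FPKM in ESC and at 288 and 140 in NeuP (rise 7.61 ± 0.50, limma adjusted p = 0.00332), over a site of 501 bp that was in the hairpin #2 list only. Hey1, a Notch target, went from 1.04 FPKM in the control to 40.4 and 32.5 in NeuP. All 3 belong to the bHLH list, and in these 3 the ranges of ESC and NeuP were separate. Limma called 4 of the 8 tested bHLH genes at sites higher and 1 lower (4 of the 8 tested only through NeuP). Over the whole bHLH list it called 5 higher and 5 lower of 20 tested.

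Of the 25 HOX genes at sites 5 were tested, and limma called all 5 higher, 3 of which passed the filter only through NeuP. Over the whole HOX list it called 5 higher and 5 lower of 12 tested. Hoxa2, a hindbrain gene (NM_010451, chr6:52112416-52114830, minus strand), was at 0.245, 0.308 and 0.288 FPKM in ESC and at 23.1 and 20.8 in NeuP, a rise of 4.20 ± 0.17 (limma adjusted p = 0.00238). Its site was listed in NeuP too. Hoxa3 rose by 2.26 ± 0.35, Hoxa5 by 1.70 ± 0.24 and Hoxb2 by 1.38 ± 0.27. Over all 25 the NeuP median was 0.026 FPKM, so most of the family at sites stayed near 0 FPKM. Ring1B was listed in NeuP at 14 of the 25.

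Homeobox genes outside HOX went both ways, with 13 higher and 8 lower of 25 tested, 11 of which passed the filter only through NeuP. Over the whole list of such genes it was 23 higher and 13 lower of 46 tested. Pou3f3, a POU factor of the forebrain, was at 0.167, 0.587 and 0.397 FPKM in ESC and 25.6 and 30.1 in NeuP (rise 4.63 ± 0.20). Meis1, a HOX cofactor, went from 0.794 FPKM in the control to 36.5 and 30.4 (4.26 ± 0.20), and Prrx1, a limb and craniofacial factor, from 0.016 to 16.6 and 16.8 (4.12 ± 0.15, with limma adjusted p of 0.00238).

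Genes at the widest sites were mostly at low levels in all cells. Tfap2a had 0.414, 0.821 and 0.77 FPKM in the control and in hairpins #2 and #4, and 3.91 and 5.73 FPKM in NeuP, where its site was not in the Ring1B list. The rise was 2.02 ± 0.25 (limma adjusted p = 0.00966). Nr2f2, whose site was absent from the NeuP list as well, had 0.168, 0.251 and 0.261 FPKM in ESC and 8.39 and 7.73 FPKM in NeuP (rise 2.95 ± 0.15, limma adjusted p = 0.00254). In both genes the NeuP libraries lay above all ESC libraries. Pitx1, Isl2, Tchh, Lef1, Hoxa9 and Osr1 did not reach 1 FPKM in any library and were not tested.

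PAX, SOX and zinc finger genes at sites entered the test in part through NeuP alone, and such a gene can hardly be called lower. Of 8 PAX genes 4 were tested, all through NeuP, and 2 rose. Pax6, a factor of radial glia and eye, was at 0.186, 0.629 and 0.6 FPKM in ESC and at 29 and 10.4 in NeuP (rise 3.96 ± 0.64, limma adjusted p = 0.017). Pax3, of the dorsal neural tube, went from 0.01 FPKM to 11.4 and 13.6 (3.74 ± 0.18). Pax7 and Pax9, with 1.6 and 0.058 and with 1.38 and 0.321 FPKM in NeuP, were not called, and their NeuP libraries differed widely. Of 7 tested SOX genes at sites, 2 of them tested only through NeuP, 3 rose and 1 fell. Over the whole SOX list 9 rose and 1 fell of 15 tested. Sox3, Sox11 and Sox9 had log2 rises of 4.04 ± 0.43, 3.78 ± 0.44 and 3.68 ± 0.84, and Sox15, at 12.8, 12.8 and 13.3 FPKM in ESC and 0.055 and 0 in NeuP, fell by 3.74 ± 0.16. Of 8 tested zinc finger genes at sites, 5 of them tested only through NeuP, 6 rose and 1 fell. Over the whole zinc finger list 11 rose and 21 fell of 45 tested. The largest changes at sites were those of Sall3 (5.03 ± 0.19) and of the immediate early genes Egr3 (4.81 ± 0.22) and Egr2 (3.80 ± 0.24).

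GATA genes, which code for factors of blood and endoderm, fell. Limma called all 4 tested GATA genes at sites lower, with a median of -2.63. It also called all 5 tested genes of the whole GATA list lower, with a median of -2.53. Gata4 was at 6.95, 10.6 and 13.1 FPKM in ESC and 0 and 0.012 in NeuP (fell by 2.98 ± 0.20, limma adjusted p = 0.0034), and Gata2 at 7.26, 3.15 and 1.56 and at 0.163 and 0.331 (fell by 2.73 ± 0.35). Gata6 and Gata3 fell by 2.53 and 1.29. Of 4 tested T-box genes at sites, 3 of them tested only through NeuP, 2 rose and 1 fell. Tbx15 and Tbx18 were up by 2.61 and 2.09, and Eomes, of mesendoderm, down from 1.34 FPKM to 0.067 and 0 (fell by 1.18 ± 0.15). Over the whole T-box list 2 rose and 4 fell of 7 tested. Of 3 tested forkhead genes at sites, 1 of them tested only through NeuP, 1 fell, Foxi3 from 0.82 FPKM to 0 in both NeuP libraries. Foxa2, at 0.82 in the control and 0.075 and 0.239 in NeuP, did not pass (limma adjusted p = 0.062). Over the whole forkhead list 2 rose and 3 fell of 23 tested.

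Signals went both ways. Wnt7a, a neural WNT ligand, rose from 0.062 FPKM in the control to 5.45 and 4.08 in NeuP (2.43 ± 0.21, limma adjusted p = 0.00491), and the WNT antagonist Frzb rose by 2.26 ± 0.36. The antagonist Sfrp4 fell by 1.58 ± 0.22 and the ligand Wnt3 by 0.87 ± 0.17, which makes 2 higher and 2 lower of 6 tested. Of these 6 genes 3 passed the filter only through NeuP. Over the whole WNT list 4 were higher and 5 lower of 16 tested. The ligand Bmp4 was at 3.07, 2.49 and 1.94 FPKM in ESC and at 0.36 and 0.352 in NeuP (fell by 1.59 ± 0.18). The Notch ligand Dll1 was at 15.4, 7.39 and 4.16 FPKM in ESC and at 62.1 and 30.6 in NeuP and did not pass (1.45 ± 0.57, limma adjusted p = 0.12). None of the 5 FGF ligands at sites reached the filter.

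Of 8 axon guidance genes at sites 6 were tested, 4 of them only through NeuP, and limma called 5 higher and 0 lower. Over the whole axon guidance list it called 19 higher and 11 lower of 51 tested. Ntn1, the guidance cue netrin, was at 0.378, 0.616 and 0.568 FPKM in ESC and at 38.2 and 18 in NeuP (rise 4.31 ± 0.49, limma adjusted p = 0.00822). The semaphorin genes Sema6a and Sema5b rose by 4.08 and 1.25 and the receptor gene Ephb1 by 3.32. Of 7 potassium channel genes 3 were tested, 2 of them only through NeuP. Kcnd3 was up by 5.07 ± 0.36 and Kcns3 down from 1.61 FPKM in the control to 0 in both NeuP libraries. Over the whole potassium channel list 10 were higher and 10 lower of 32 tested. Of the neural progenitor markers at sites 9 of 10 tested were called higher, 9 of the 10 having passed only through NeuP. Over the whole list of these markers 17 of 23 tested were called higher.

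The other large rises were in structural and secreted proteins. Marcks, a membrane and actin binding substrate of protein kinase C, was at 13.4, 16.5 and 15.8 FPKM in ESC and at 676 and 410 in NeuP (5.20 ± 0.37, limma adjusted p = 0.00381). Pantr1, a noncoding RNA next to Pou3f3, stood at 0 in control ESC and at 120 and 135 FPKM in NeuP (7.0 ± 0.26). The matrix genes Sparcl1 and Spon1 rose by 7.72 ± 1.01 and 5.12 ± 0.92, with 462 and 100 and with 70 and 16.6 FPKM in the NeuP replicates, which differed over 4-fold. Cdh2, the neural cadherin, rose by 5.21 ± 0.18, and the noncoding gene BC064078, the receptor accessory gene Tril and the membrane protein gene Tmem229a by 6.32, 5.65 and 5.16.

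**Figure D4:**
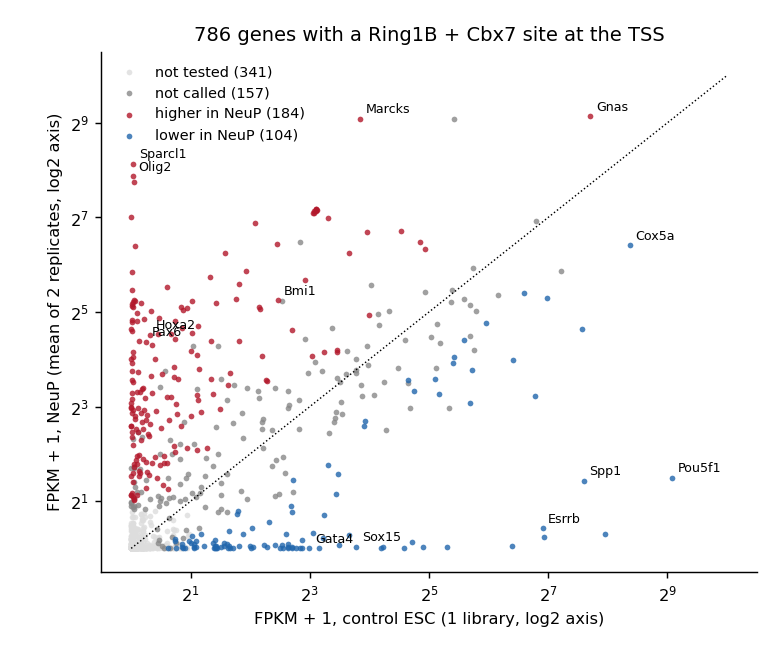
FPKM + 1 in control ESC (horizontal axis, log2, 1 library) and in NeuP (vertical axis, log2, mean of 2 replicates) for the 786 genes with a site at the start, by limma call. Genes called higher mostly start at the left edge, near 0 FPKM, and genes called lower are spread to the right up to Pou5f1 at 543 FPKM.

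Genes active in ESC also had a site with both proteins within 2 kb of their start. Pou5f1 itself (NM_013633, mm9 chr17:35642977-35647722, plus strand) measured 543 FPKM in control ESC, 476 and 501 FPKM with the hairpins and 1.99 and 1.65 FPKM in NeuP, the highest control value of the 786 genes. It fell by 7.59 ± 0.21 in NeuP (limma adjusted p = 0.00238). The Pou5f1 site ended upstream of this start, at chr17:35641976, and was assigned to the gene by the 2 kb window. Limma called all 6 tested pluripotency genes at sites lower, with a median of -6.42. Over the whole pluripotency list it called 27 of 31 tested genes lower, with a median of -3.81. Fbxo15 was at 248, 286 and 300 FPKM in ESC and at 0.277 and 0.183 in NeuP (fell by 7.66 ± 0.19), Esrrb, an orphan nuclear receptor, at 119, 132 and 135 and at 0.126 and 0.57, and Tfcp2l1, a factor of the naive state, at 82.7, 63.1 and 61.5 and at 0.037 and 0.04. Esrrb fell by 6.50 and Tfcp2l1 by 6.33. Of the 6 sites 0 were listed as Ring1B sites in NeuP.

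Other large falls were those of the amino acid transporter gene Slc38a4 (fell by 6.69 ± 0.23), the secreted phosphoprotein gene Spp1 (6.21 ± 0.38 lower in log2 terms), the germline RNA helicase gene Mov10l1 (fell by 4.87), Slc35f2 (fell by 4.59) and Gm1564 (fell by 4.57). The Slc35f2 site (chr9:53618531-53619239) was in neither hairpin list, like those of Tspan15, Tmem57, Cxcl16 and Car12, which were the widest such sites at a TSS at 684 to 852 bp. Of the 8 genes highest in the control, Gnas, which codes for a G protein subunit, rose from 208 FPKM to 578 and 551 (1.43 ± 0.20, limma adjusted p = 0.0124). Cox5a, Asns, Ppp2r5c and Spp1 fell with Pou5f1 and Fbxo15. Cdca3, with 149 FPKM in control ESC and 3.8 and 112 FPKM in NeuP, did not pass (limma adjusted p = 0.34).

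Subunits of Polycomb complexes were themselves among the genes. Sites lay at 4 of 25 PRC1 and 1 of 12 PRC2 genes. Bmi1, a PCGF subunit of canonical PRC1, was at 4.52, 6.77 and 5.89 FPKM in ESC and at 36.7 and 37.3 in NeuP (rise 2.78 ± 0.19, limma adjusted p = 0.00351). Rybp, a subunit of the forms without a CBX protein, was at 8.88, 10.1 and 9.89 and at 1.76 and 3.04 (fell by 1.56 ± 0.29, limma adjusted p = 0.0234). Bcor, another such subunit, and the CBX subunit gene Cbx2 did not pass, at 8.98 and 5.26 FPKM in the control, with changes of -0.92 ± 0.34 and 0.39 ± 0.19. Jarid2, a PRC2 partner, fell from 42 FPKM to 19 and 12.2 (by 1.40 ± 0.33, limma adjusted p = 0.0385).

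**Figure D5:**
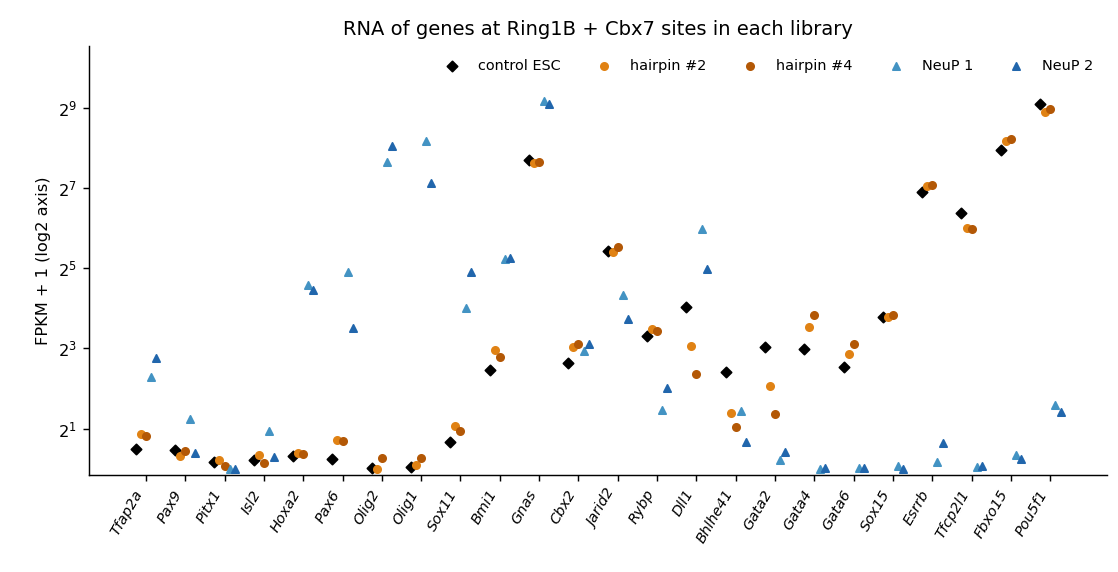
FPKM + 1 (vertical axis, log2) of named genes at the sites (horizontal axis) in each of the 5 libraries, 1 point per library. The 3 ESC libraries lie close together for most genes, and the 2 NeuP libraries lie above them for Olig2, with 201 and 265 FPKM, and below them for Pou5f1, with 1.99 and 1.65 FPKM.

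Knockdown of Nup153 was compared with the control to ask whether genes at the sites respond to less Nup153. Nup153 RNA measured 39.4 FPKM with the control hairpin, 20.9 with hairpin #2 and 17.4 with #4 (-1.01 ± 0.55, limma adjusted p = 0.897), and the single control library has no replicate. Limma called 0 of the 445 tested genes at the sites, as it called 0 (0%) of all 13750. At an unadjusted p under 0.05 there were 33 genes at the sites, 28 of them higher, and 814 of all genes, 617 of them higher. Voom on the recovered reads called 0 as well, with 34 and 481 such genes.

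The levels at the sites lay slightly above the control in both hairpins, as did those of other genes of low level. The median change of the 445 was 0.15 (0.17 in hairpin #2 and 0.13 in #4), against 0.08 over all genes. Among tested genes under 1 FPKM in the control it was 0.15 at the sites and 0.16 over all genes. Of the 445, 312 were above the control in both hairpins and 83 below it in both, against 7567 and 4059 of 13750. Both hairpins were set against the same control library, so an error in it moves both alike. After quantile normalization the median was 0.03 for the genes at the sites and 0.0018 over all genes. Genes whose site met Nup153 DamID had a median of 0.24, and those whose site did not 0.14. This gap was not particular to Nup153. With and without Oct4 DamID the medians were 0.35 (37 tested genes) and 0.14, and with and without Oct4 ChIP 0.30 (30 tested genes) and 0.15.

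By size, 0 of the 445 reached a 2-fold rise in both hairpins, against 0.305% of all tested genes, and 1 was at least 2-fold lower in both, against 0.16%. The gene was Bhlhe41, a bHLH repressor of the circadian clock (NM_024469, chr6:145806763-145813940, minus strand), at 4.33 FPKM in control ESC, 1.64 FPKM in hairpin #2 and 1.07 FPKM in #4. Its change was -1.19 ± 0.40 (limma adjusted p = 0.827), with -1.02 and -1.37 in the separate hairpins, and it was at 1.71 and 0.592 FPKM in NeuP. Its site of 678 bp was bound by Ring1B in both hairpin lists. With a pseudocount of 0.1 in place of 1, which weights low levels more, 35 genes were 2-fold higher and 4 lower in both hairpins, against 388 and 65 of all genes.

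Some regulators came close to that size without reaching it. Gata2 had -1.34 ± 0.35 (limma adjusted p = 0.825), with -0.99 and -1.69 in the hairpins. Dll1, with 15.4 FPKM in control ESC and 7.39 and 4.16 FPKM in the hairpins, had -1.31 ± 0.57. Neurod1, a neuronal bHLH factor, stood at 3.66, 9.68 and 7.55 FPKM (1.04 ± 0.75), and Gata4 had 0.69 ± 0.20. In all of these the hairpin values lay on 1 side of the control, and none passed the test. The HOX genes at sites had a median change of 0.08, and the pluripotency genes one of 0.01. The Ring1B lists of both hairpins still held the Gata2 site, and the sites at Dll1 and Neurod1 were in the hairpin #2 list only of these 2 lists.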

How the data were processed

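RNA-seq (5 libraries), ChIP-seq and DamID-seq of mouse cells were used. Members, gene lists and comparisons were chosen with earlier results of these data known. Per the submitters' processing notes the tools were CASAVA 1.8.2, Bowtie2 2.1.0, STAR 2.2.0c and HOMER 4.6, on mm9, with edgeR named without a version. RNA values were deposited by the authors as FPKM, from strand-specific polyadenylated RNA per the labels. Per the file headers Ring1B and Cbx7 peaks came from HOMER findPeaks in the histone style against an ESC IgG library (also for NeuP), and Oct4 peaks, all of 1 width, in its factor style. Each ChIP list stands for 1 library and each DamID list for 2 replicates.

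A site was shared when at least 1 bp overlapped. Genes at a site had a transcript start within 2 kb in the deposited table. Shares carry Wilson and differences Newcombe 95% intervals. Genes with at least 1 FPKM in at least 1 library were tested on log2(FPKM + 1) with limma 3.58.1 (limma-trend, R 4.3.3), all 5 libraries in 1 fit of 3 groups, two-sided, with Benjamini-Hochberg adjustment at 0.05. The control has 1 library, whose spread was taken to be that of the other groups. Residual degrees of freedom were 2, and moderation added 1.74. P-values measure the spread between these libraries, which the labels do not say came from separate cultures. Among low values, 100% of those checked were whole reads (within 0.1 read) once scaled by length, which gave the fragment depths and the reads used for voom. Named genes were those at the 12 widest sites, the 10 largest called rises and falls in NeuP, up to 5 changed 2-fold in each direction in both hairpins, the 4 largest changes per list, the 8 highest in the control, and those at the 5 widest TSS sites of each subset (in neither hairpin, not in NeuP, with Nup153 DamID, with Oct4). The 4 microRNAs were chosen after their sites were seen. The fit was tested on simulated data. Overlaps were computed in Python 3.11.15 with pandas 2.3.3, numpy 2.4.6, matplotlib 3.10.9 and scipy 1.17.1. Left out were the Oct4 list of hairpin #2 and sequences of distal sites. Some genes that the naming rule gives are not reported here.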

Additional observations from a re-analysis of the deposited data

How the results depend on the processing

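Of 103 alternative values for 13 results, 75 stayed within the range set for their result and 28 moved. Each value was scored by itself, so a turn in the balance of higher and lower calls was not scored. Such a turn did occur in NeuP. Lower calls at the sites outnumbered higher ones with only the compared groups (41 higher, 77 lower) and without a filter (137 higher, 139 lower). With at least 50% of a site covered by the other list, the shares were 78.3% in hairpin #2, 64.9% in hairpin #4, 9.07% in NeuP and 0% for Oct4, whose peaks are 177 bp wide and cannot cover so much of a site. With at least 50% of the site in Cbx7, Nup153 DamID met 9.65% and Oct4 DamID 12.5%, and the differences from Ring1B-only sites were -4.62 and -3.91 points. Medians of width removed almost nothing, so 2 restrictions were added after seeing the data. With Cbx7 peaks wider than 501 bp, the shares were 88.0% in hairpin #2, 16.1% in NeuP, 12.7% for Oct4 DamID and 34.4% at a TSS. With Ring1B peaks wider than 501 bp, 1891 sites remained, with 88.2% in hairpin #2, 85.8% in hairpin #4, 15.3% in NeuP, 14.8% for Nup153 DamID, 21.3% for Oct4 and 19.4% for Oct4 DamID. A TSS window of 1 kb gave 19.6% and one of 5 kb 37.5% of sites at a TSS. In NeuP the genes called higher by limma numbered 41 with only the compared groups, and 51 to 257 when 1 library was left out (51 without either hairpin, 248 without NeuP replicate 1, 257 without replicate 2), and those called lower 74 to 152. In the knockdown limma called 8 genes without a filter on low values (3 higher, 5 lower, of 786), beside 55 higher and 175 lower of all 24016. Genes 2-fold higher in both hairpins numbered 35 with a pseudocount of 0.1 and 2 with the 5 kb window, and those 2-fold lower 4 with a pseudocount of 0.1, 0 with one of 5 and 3 after quantile normalization. Counting genes with a shared 3′ end once, also added after seeing the data, gave 176 higher and 104 lower in NeuP. The cause of these moves was not tested, apart from the Oct4 width. No paired analysis was possible because each DamID factor has 1 list for both replicates and the hairpin numbers have no counterpart in the control or NeuP. The Ring1B control list rests on 4.99 M tags, the fewest of the ChIP lists used, and the part of depth was not tested.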

Other observations

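Oct4 DamID split the sites in the same direction as Oct4 ChIP, but less in hairpin #2, where Oct4 ChIP gave 95.2% against 78.6%. Of the 456 sites with Oct4 DamID, 36.0% carried Oct4 by ChIP, 85.5% were Ring1B sites in hairpin #2, 87.7% in hairpin #4 and 6.14% in NeuP, whereas the sites without it gave 12.1%, 80.4%, 69.0% and 13.9%. Their median width was 817.5 bp against 631 bp. At a start site, genes with Oct4 DamID had a control median of 7.5 FPKM and genes without it 0.234 FPKM.

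Genes split by the width of their widest site had control medians of 0.35 FPKM at 501 bp, 0.472 FPKM above that and up to 1000 bp, and 0.141 FPKM above 1000 bp. In the last class 77.2% of genes were under 1 FPKM in the control and 60.7% and 62.9% in the NeuP replicates. Genes whose site was absent from the hairpin #2 list had a control median of 2.81 FPKM, and those whose site was in it 0.201 FPKM, a difference that hairpin #4 showed less, with 0.502 and 0.203 FPKM.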
